A study of Mus musculus with 15 samples.

Results

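NIH3T3 mouse fibroblasts, an established cell line, were starved and then given platelet-derived growth factor (PDGF) in the presence of rapamycin, and were compared with starved cells that received no PDGF. The comparison takes 6 of the series' 15 libraries, 3 per group, chosen by their titles: the H2A-mCherry cells labelled rapamycin and PDGF, replicates 1 to 3, and the H2A-mCherry cells labelled no PDGF, replicates 1 to 3. It asks which responses to the growth factor are still seen when mTORC1 is inhibited. The 3 libraries of H2A-mCherry cells with PDGF alone are given beside them. All 3 groups carry the same doxycycline-inducible fusion of histone H2A to the fluorescent protein mCherry, which serves in the series as the control for an inhibitor construct. The labels used here state neither doses nor times, nor how long the cells were starved. There is no group with rapamycin and no PDGF, so an action of rapamycin on starved cells cannot be told apart from an action on the response to PDGF.

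PDGF binds receptor tyrosine kinases on fibroblasts and starts a RAS-MAPK relay, which switches on immediate early genes, and a PI3K-AKT relay, which inactivates FOXO transcription factors and activates mTORC1. mTORC1 is a protein kinase that matches the synthesis of proteins, lipids and nucleotides to growth factor and nutrient supply, in part through the transcription factors SREBP and ATF4. Rapamycin binds the protein FKBP12, and the pair inhibits mTORC1.

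The deposited files hold read counts per transcript, which were summed per gene. The 6 libraries held 3494761 to 4652663 counts. For *Fn1*, *Dcn*, *Cish*, *Lif*, *Dbp*, *Fosl1*, *Fosb*, *Dusp6*, *Dusp1*, *Ccl2*, *Cyld*, *Fdps*, *Msmo1*, *Hmgcs1*, *Atf4*, *Odc1*, *Azin1*, *Sat1*, *Polr1c*, *Gar1*, *Mybbp1a*, *Rpl3*, *Tk1*, *Sqstm1* and *Fkbp1a*, under 50% of the reads lay on transcripts annotated as protein-coding, so their values describe mainly other transcripts of the gene. Levels are given as CPM, a gene's reads per 1000000 of its library, after TMM scaling, which sets the bulk of genes to no change. Differences are log2 ratios with a standard error (SE) from edgeR's quasi-likelihood test, and a gene was called changed at a Benjamini-Hochberg adjusted p under 0.05 over all 10597 genes tested. Whether a group's libraries are separate cultures is not in the labels, so p-values measure the spread between these libraries, which may be technical. Of the 11 fibroblast markers, all had reads, and 10 had enough to be tested. Their summed level was 8445 to 8543 CPM without PDGF, 7341 to 7662 CPM with PDGF and 4743 to 5135 CPM with rapamycin and PDGF. Most of that sum was *Col1a1* and *Col1a2*, the chains of type I collagen, which fell together with *Col3a1*, while *Dcn* (3.36 on the log2 scale), *Lum* (1.36), *Fn1* (1.11) and *Pdgfra* (0.64) rose, and 3 tested markers were not called. In bulk RNA a change in the number of cells of a type and in RNA per cell cannot be told apart. Summed markers of endothelial, epithelial, muscle, neural and fat cells stayed at or below 7.60 CPM in these 9 libraries. Macrophage markers summed to 6.91 to 11.3 CPM without PDGF, 15.98 to 19.1 CPM with PDGF and 16.9 to 18.8 CPM with rapamycin and PDGF, and *Ptprc*, *Adgre1*, *Itgam*, *Tyrobp* and *Fcer1g*, 5 of the 9, had no read. Reads of mitochondrially encoded genes made up 11.1% to 12.2% of the counts without PDGF and 9.85% to 11% with rapamycin and PDGF.

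With rapamycin and PDGF, 2947 genes rose against no PDGF (27.8% of those tested) and 2708 fell (25.6%). PDGF alone raised 2126 genes (20.1%) and lowered 1793 (16.9%). The level with rapamycin and PDGF was above that with PDGF alone for 1725 genes (16.3%) and below it for 1708 (16.1%). Counts of list members called in each direction are to be read beside these shares. These 3 comparisons share libraries pairwise, so a difference in the number of calls between them has no test here. Scaling to the library total alone moved the median of all genes from 0.02 to −0.36 on the log2 scale and the share of the called genes that were higher from 52.1% to 31.6%. Changes are therefore relative to the bulk of genes, and a positive list median smaller than that shift can reach 0 or change sign with the scaling.

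**Figure D1:**
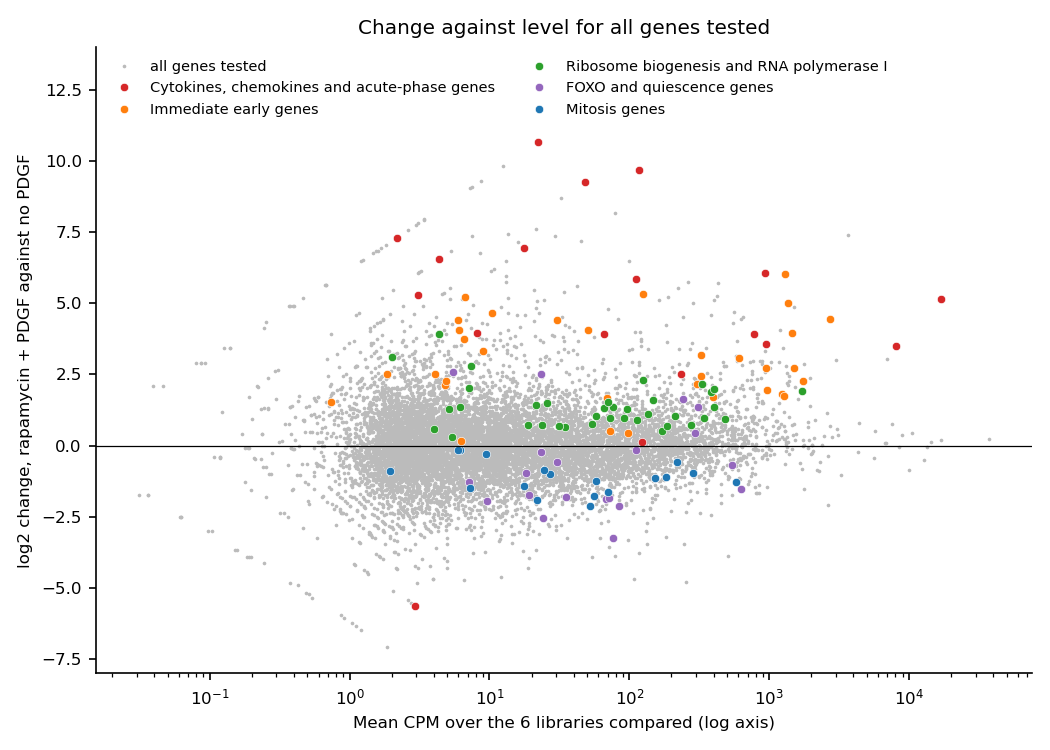
log2 change (rapamycin with PDGF against no PDGF, vertical axis) against the mean CPM over the 6 libraries (horizontal log axis) for the genes tested, one point each, with members of 5 lists in colour. Cytokine and immediate early genes lie mostly above 0, ribosome biogenesis genes lie above 0, and FOXO and mitosis genes lie mostly below it; fitted changes at very low levels depend on the prior count.

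**Figure D2:**
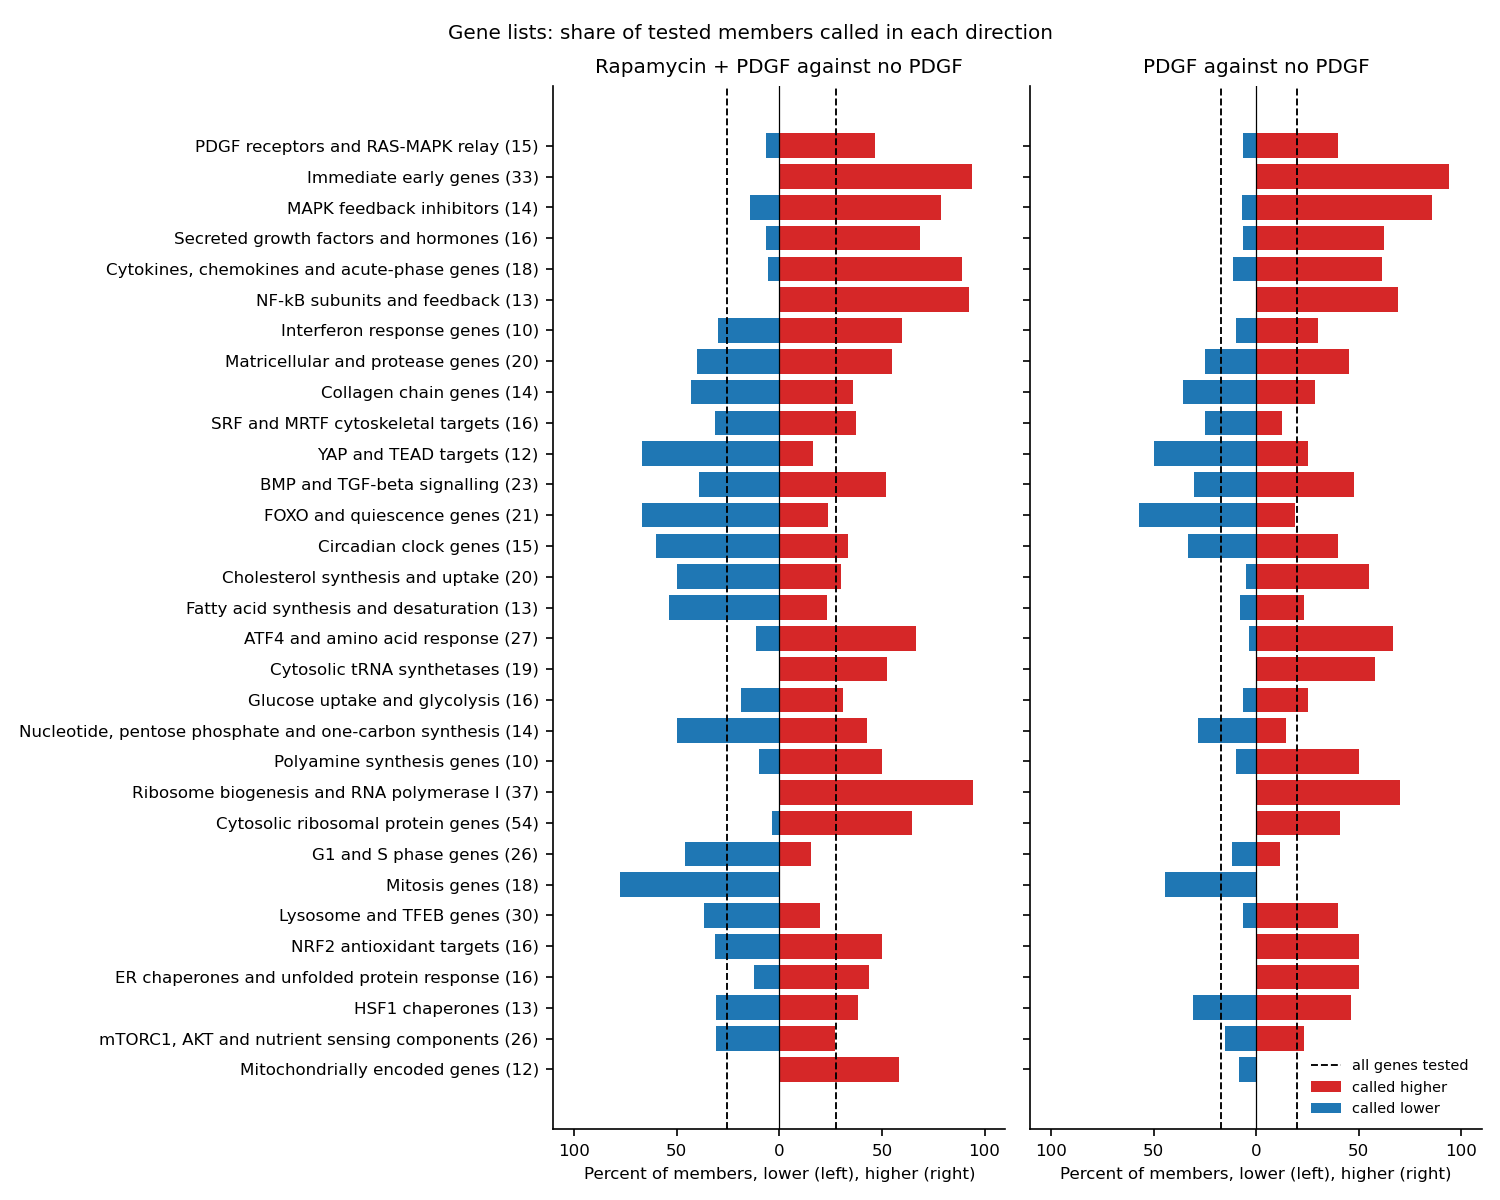
Share of the tested members of each of 31 gene lists (number tested in brackets) called higher (red, right) or lower (blue, left), for rapamycin with PDGF and for PDGF alone, each against no PDGF. Dashed lines mark the shares over all genes tested, 27.8% and 25.6% in the left panel and 20.1% and 16.9% in the right panel.

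The largest rises included genes that had no read without PDGF. *Icam1*, an adhesion molecule for leukocytes, had no read without PDGF and stood at 39.6, 46.5 and 48.2 CPM with rapamycin and PDGF, at least 231-fold higher against a floor of 3 counts over the group. *Cish*, an inhibitor of cytokine receptor signalling, had no read without PDGF and was at least 128-fold higher, with 25.6, 27.7 and 22.1 CPM. *Slfn2*, *Il23a*, a subunit of interleukin-23, and *Gpr84*, a receptor for fatty acids, were likewise without a read and were at least 79.6-fold, 74.9-fold and 35.4-fold higher. *Lif*, a cytokine of the interleukin-6 family, had 2 reads without PDGF and 1071 with rapamycin and PDGF, a ratio of 748 (exact 95% interval 207 to 6183, counting error only). *Csf3*, the granulocyte growth factor G-CSF, had 0.182, 0.654 and 0 CPM without PDGF and 232, 229.9 and 246 CPM with rapamycin and PDGF, a log2 change of 9.68 ± 0.26 (adjusted p = 7.13e-45). With PDGF alone *Csf3* stood at 1.38, 0.259 and 0.414 CPM and was not called (1.24 ± 0.80, adjusted p = 0.234). *Ccdc85b* changed by 8.17 ± 0.26 and was also higher with PDGF alone (6.33 ± 0.32).

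Among the largest falls, *Mn1*, a transcriptional coregulator, went from 534, 480.4 and 470.2 CPM without PDGF to 16.7, 20.9 and 15.9 CPM with rapamycin and PDGF, a log2 change of −4.80 ± 0.10 (adjusted p = 2.33e-50), and stood at 47.1, 58.4 and 43.1 CPM with PDGF alone. The *Mn1* levels with PDGF alone lay between those of both other groups, whose separation the naming rule required. *Bmf*, which promotes cell death, changed by −4.73 ± 0.48. *Cxcl12*, a chemokine, had 88 reads without PDGF and 1 with rapamycin and PDGF, a ratio of 0.0159 (exact 95% interval 0.000397 to 0.0907). For *Dbp*, an output gene of the circadian clock, the reads were 77 and 1, a ratio of 0.0181 (0.000453 to 0.104). For *Nynrin* the reads were 62 and 1, a ratio of 0.0225 (0.000561 to 0.130). In these 3 genes almost no read was left. For *Nap1l2*, a histone chaperone gene, the reads were 91 and 2, a ratio of 0.0307 (0.00366 to 0.114). For *Rgs9bp* the reads were 116 and 3, a ratio of 0.0361 (0.00734 to 0.108). For *Edn1*, which encodes the vasoconstrictor endothelin-1, the reads were 117 and 3, a ratio of 0.0358 (0.00728 to 0.107). For *Edn1* the level with PDGF alone was 5.51, 5.43 and 3.94 CPM, against 8.36, 7.85 and 6.55 CPM without PDGF, and that difference was not called (−0.63 ± 0.31).

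Genes of the receptors and the relay changed by −0.59 to 1.16 on the log2 scale. Of 23 listed genes 15 could be tested, and 7 rose and 1 fell, where 27.8% and 25.6% of all genes did. Their median log2 change of 0.37 became 0 when libraries were scaled to their totals alone. *Pdgfra*, a PDGF receptor, stood at 20.9, 11.1 and 24.1 CPM without PDGF, 12.9, 8.27 and 10.98 CPM with PDGF and 29.3, 31.1 and 28.02 CPM with rapamycin and PDGF. It was lower with PDGF alone (−0.81 ± 0.24, adjusted p = 0.00415, a call lost without no-PDGF replicate 3) and higher with rapamycin and PDGF (0.64 ± 0.22, adjusted p = 0.0098). The rise was lost under library-size scaling and without the second no-PDGF library, and its adjusted p reached 0.322. *Pdgfrb* had too few reads to be tested.

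Immediate early genes are induced within minutes from factors already present in the cell. Of the 33 that could be tested of 38 listed, 31 rose with rapamycin and PDGF and none fell, with a median log2 change of 2.74. Among all genes tested 27.8% rose and 25.6% fell. With PDGF alone 31 rose (20.1% of all genes did) and the median was 2.15. Only *Egr1*, which had few reads here (6 without PDGF and 13 with rapamycin and PDGF), and *Gem* were not called. *Jun*, a subunit of the AP-1 transcription factor, stood at 259, 267 and 190.3 CPM without PDGF and 4805, 5159 and 5629 CPM with rapamycin and PDGF, a log2 change of 4.44 ± 0.11 (adjusted p = 7.85e-13). *Fos*, its partner in AP-1, went from 7.27, 5.24 and 4.68 CPM to 79.1, 102 and 108 CPM (4.06 ± 0.16, adjusted p = 8.80e-15). In both genes every library with rapamycin and PDGF was above every library without PDGF. PDGF alone gave log2 changes of 4.79 ± 0.12 for *Jun* and 4.59 ± 0.15 for *Fos*.

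Members of this list differed in how the level with rapamycin compared with that of PDGF alone, with 13 called higher and 8 called lower (over all genes, 16.3% and 16.1%). *Ier3*, an inhibitor of cell death, rose by 6.02 ± 0.20 with rapamycin and by 4.78 ± 0.19 without it. *Fosl1*, which encodes the AP-1 subunit FRA1, rose by 4.07 ± 0.48 and 2.65 ± 0.55. *Phlda1* rose by 5.32 ± 0.12 and 4.61 ± 0.12. These 3 were called higher with rapamycin than without it. *Myc*, a regulator of cell growth, rose by 2.28 ± 0.43 and 1.90 ± 0.44, and the difference between them was not called (95% interval −0.36 to 1.13). On the lower side, *Fosb*, another AP-1 subunit, rose by 5.21 ± 0.47 with rapamycin and 6.19 ± 0.39 without it. *Klf4*, a zinc finger transcription factor, rose by 1.69 ± 0.06 and 2.54 ± 0.06.

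**Figure D3:**
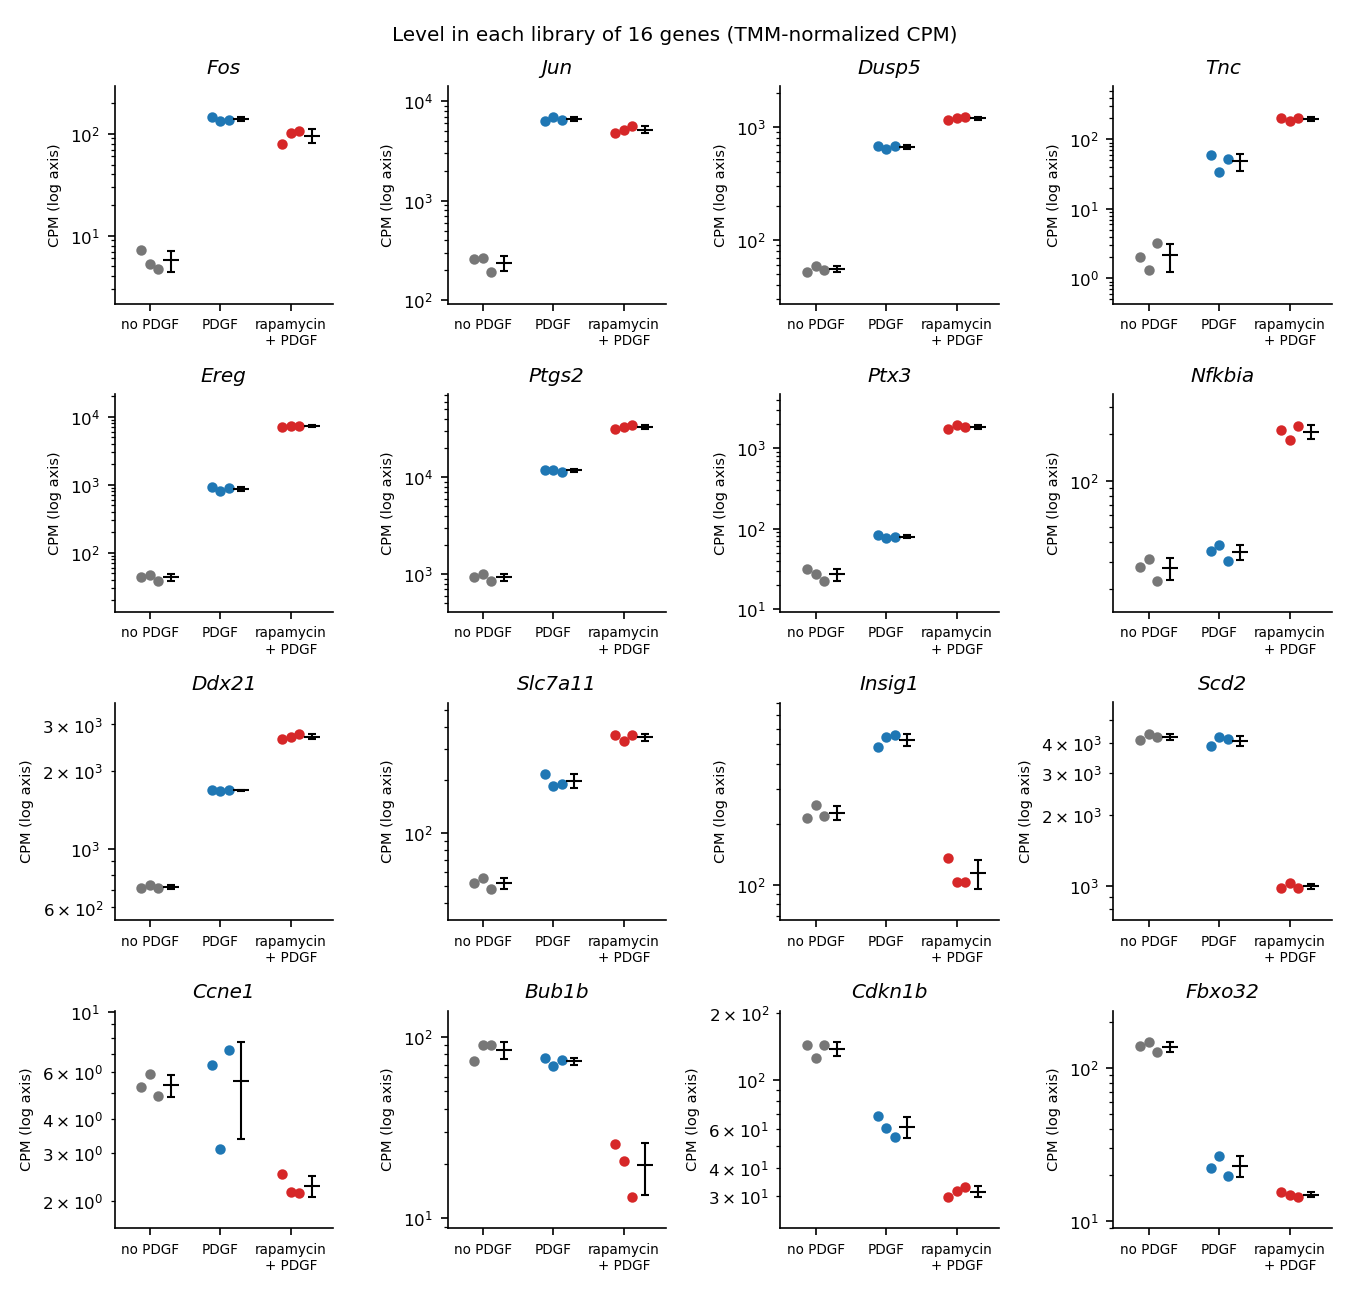
TMM-normalized CPM (vertical log axes) of 16 genes in each of the 3 libraries of 3 groups: no PDGF (grey), PDGF (blue) and rapamycin with PDGF (red), with the mean and SD of each group in black. In each of the 16 genes every red point is apart from the grey ones, above them in the first 10 panels and below them in the last 6.

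Feedback inhibitors of the MAPK relay, the DUSP phosphatases and the Sprouty and SPRED proteins, rose in 11 of 14 tested cases with a median of 2.92, and fell in 2. Over all genes 27.8% rose and 25.6% fell. *Dusp5*, a nuclear ERK phosphatase, stood at 52.4, 59.3 and 54.1 CPM without PDGF and 1158, 1208 and 1221 CPM with rapamycin and PDGF (4.44 ± 0.07, adjusted p = 5.34e-58), above its level of 682, 636 and 684 CPM with PDGF alone. *Spry2* rose by 4.32 ± 0.07, *Spry4* by 3.75 ± 0.10 and *Dusp6*, a cytoplasmic ERK phosphatase, by 3.10 ± 0.71. The members that fell were *Dusp1*, with −2.19, and *Dusp7*, another ERK phosphatase, which went from 81.98, 90.5 and 72.4 CPM to 35.95, 38.8 and 41.3 CPM (−1.07 ± 0.14). *Dusp7* fell further with PDGF alone (−1.76 ± 0.15), and the level with rapamycin was called higher than that (0.69 ± 0.16). The promoter of *Dusp5* is shown because it holds adjacent matches to the CArG box, the site bound by serum response factor. The window runs from 250 bases before to 50 after the RefSeq start (chr19:53528895-53529194, plus strand, GRCm38.p6), and capitals mark the matches.
Dusp5: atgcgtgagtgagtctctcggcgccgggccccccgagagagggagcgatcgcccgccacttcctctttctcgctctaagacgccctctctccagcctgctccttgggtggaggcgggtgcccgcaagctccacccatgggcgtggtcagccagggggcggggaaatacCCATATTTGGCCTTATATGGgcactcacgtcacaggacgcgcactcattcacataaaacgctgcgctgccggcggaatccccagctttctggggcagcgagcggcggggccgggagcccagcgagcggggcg
Of 15 MAPK feedback inhibitors with a window given, 1, *Dusp5*, held a CArG box on either strand (6.67%). So did 3 of 28 immediate early genes (10.7%) and 8 of 20 SRF and MRTF cytoskeletal targets (40%). A gene counted if any of its windows matched. Of all 32851 windows, counted singly, 1.63% matched, so shares of genes and of windows are not like for like. The SRF and MRTF targets, actin and its partners, were called at shares near those over all genes: of 16 tested 6 rose and 5 fell (37.5% and 31.25%, against 27.8% and 25.6%), with a median of 0.30 that became −0.08 under library-size scaling. *Acta2*, smooth muscle actin, went from 125, 123 and 122 CPM to 53.5, 56.9 and 56.05 CPM (−1.15 ± 0.09, adjusted p = 4.62e-18), while *Tagln2* rose by 1.91 ± 0.09 and *Filip1l* by 1.59 ± 0.52. *Acta2* was not called with PDGF alone (−0.04 ± 0.08).

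Secreted growth factors and hormones rose in 11 of 16 tested cases, with a median of 2.17, and 1, *Edn1*, fell. Over all genes 27.8% rose and 25.6% fell. With PDGF alone the median was 1.0. *Ereg*, which encodes the EGF receptor ligand epiregulin, stood at 43.99, 47.8 and 38.7 CPM without PDGF, 913, 815 and 906 CPM with PDGF and 6971, 7318 and 7443 CPM with rapamycin and PDGF. The 3 groups did not overlap, and the log2 change with rapamycin was 7.38 ± 0.17 against no PDGF (adjusted p = 3.12e-12) and 3.04 ± 0.13 against PDGF alone (adjusted p = 4.57e-09). *Stc1*, the hormone stanniocalcin 1, had 2 reads without PDGF and 298 with rapamycin and PDGF, a ratio of 208 (exact 95% interval 57.1 to 1726). *Hbegf*, a further EGF receptor ligand, rose by 5.24 ± 0.08, and by 4.35 ± 0.08 with PDGF alone. *Ccn1*, a matrix protein also listed as a YAP target, rose by 3.44 ± 0.15.

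Cytokines, chemokines and acute-phase genes gave the highest median of the 31 lists. Of 18 tested of 26 listed, 16 rose and 1 fell with rapamycin and PDGF, and the median was 5.22, or 4.80 with genes unread in a group set at their bound. With PDGF alone 11 rose and 2 fell, with a median of 2.05. Over all genes 27.8% rose and 25.6% fell with rapamycin and PDGF, and 20.1% and 16.9% with PDGF alone. The level with rapamycin was called above that of PDGF alone for 15 members and below it for none (over all genes, 16.3% and 16.1%). *Ptgs2*, the prostaglandin synthase COX-2, stood at 926, 1011 and 858 CPM without PDGF, 11972, 11829 and 11363 CPM with PDGF and 31702, 33016 and 34230.2 CPM with rapamycin and PDGF. Its groups were separate, at 35.4-fold the level without PDGF when rapamycin was present (5.15 ± 0.06, adjusted p = 1.12e-62). *Ptx3*, an acute-phase pentraxin, stood at 31.8, 27.1 and 22.4 CPM, 83.5, 76.5 and 78.3 CPM and 1726, 1915 and 1843 CPM in the same order (6.07 ± 0.09, adjusted p = 1.91e-60). For *Ptx3* the larger step was between PDGF alone and rapamycin with PDGF (4.53 ± 0.08). *Ccl2*, a chemokine for monocytes, was not called with PDGF alone (0.31 ± 0.59) and rose by 3.94 ± 0.43 with rapamycin and PDGF. *Il6*, an inflammatory cytokine, had 2 reads without PDGF, 99 with PDGF and 68 with rapamycin and PDGF, and its level with rapamycin was not called different from that with PDGF alone (difference −0.40, 95% interval −1.19 to 0.39). The summed macrophage markers were higher with rapamycin and PDGF than without PDGF but in the same range as with PDGF alone (15.98 to 19.1 CPM). Of the 2 that could be tested, *Cd14*, a receptor for bacterial lipids that made up most of the sum, rose by 1.38 and *Lyz2*, a lysozyme, fell by 1.77 on the log2 scale, and the part of these cells in the rises was not tested.

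NF-kB subunits and their feedback regulators rose in 12 of 13 tested cases, with a median of 3.39 (with PDGF alone, 9 rose and the median was 1.15). Over all genes 27.8% rose with rapamycin and PDGF and 20.1% with PDGF alone. *Cyld*, a deubiquitinase that restrains the pathway, was not called. *Nfkbia*, the inhibitor that holds NF-kB in the cytoplasm and is itself a target of the pathway, stood at 27.8, 31.4 and 22.6 CPM without PDGF, 35.3, 38.5 and 30.5 CPM with PDGF and 213, 183 and 225 CPM with rapamycin and PDGF. Every library with rapamycin and PDGF was above all 6 others (2.93 ± 0.10, adjusted p = 3.96e-37). *Zc3h12a*, an endonuclease that degrades inflammatory messages, rose by 4.22 ± 0.11 with rapamycin and PDGF and 1.76 ± 0.12 with PDGF alone. *Traf1*, a signalling adaptor, had 2 reads without PDGF and 71 with rapamycin and PDGF, a ratio of 49.6 (exact 95% interval 13.2 to 417). The promoter of *Nfkbia* is shown with its match to the kappaB site, the sequence bound by NF-kB, in capitals (chr12:55492598-55492897, minus strand, GRCm38.p6).
Nfkbia: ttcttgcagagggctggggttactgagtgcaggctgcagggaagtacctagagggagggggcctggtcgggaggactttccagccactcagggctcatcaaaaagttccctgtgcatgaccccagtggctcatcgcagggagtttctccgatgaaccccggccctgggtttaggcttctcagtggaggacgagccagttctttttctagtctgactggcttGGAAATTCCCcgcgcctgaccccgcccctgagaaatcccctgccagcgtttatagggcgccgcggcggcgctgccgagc
Of 13 genes of this list with a window, 8 held a kappaB site on either strand in any of their windows (61.5%). Counted by single window and not by gene, 4.51% of all windows held one.

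Interferon response genes split. Only 10 of 30 listed could be tested, and 6 rose and 3 fell (60% and 30%, against 27.8% and 25.6% of all genes). *Gbp2*, an interferon-inducible GTPase, stood at 25.3, 21.2 and 21.9 CPM without PDGF, 29.8, 31.02 and 33.4 CPM with PDGF and 667, 868 and 826 CPM with rapamycin and PDGF (5.10 ± 0.10, adjusted p = 3.84e-54). Its relative *Gbp7* rose by 4.63 ± 0.51 and *Xaf1*, a pro-apoptotic protein, by 2.09 ± 0.33. In contrast, *Ifit1*, an antiviral protein that binds foreign RNA, went from 28.7, 36.0 and 31.1 CPM to 6.13, 9.23 and 4.51 CPM (−2.30 ± 0.18, adjusted p = 3.76e-17), *Ifit2* fell by 2.10 ± 0.11 and *Ifit3* by 1.23 ± 0.36. The windows of *Gbp2* (chr3:142620413-142620712, plus strand) and *Ifit1* (chr19:34640639-34640938, plus strand; both GRCm38.p6) are shown because both hold the core of the interferon-stimulated response element (TTTC, any 2 bases, TTTC) in capitals, while the genes moved in opposite directions.
Gbp2: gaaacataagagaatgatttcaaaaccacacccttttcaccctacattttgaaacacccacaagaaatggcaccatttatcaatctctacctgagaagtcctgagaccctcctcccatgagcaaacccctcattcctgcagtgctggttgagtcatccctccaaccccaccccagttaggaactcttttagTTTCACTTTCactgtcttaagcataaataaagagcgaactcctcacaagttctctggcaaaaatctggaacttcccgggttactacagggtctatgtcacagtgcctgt
Ifit1: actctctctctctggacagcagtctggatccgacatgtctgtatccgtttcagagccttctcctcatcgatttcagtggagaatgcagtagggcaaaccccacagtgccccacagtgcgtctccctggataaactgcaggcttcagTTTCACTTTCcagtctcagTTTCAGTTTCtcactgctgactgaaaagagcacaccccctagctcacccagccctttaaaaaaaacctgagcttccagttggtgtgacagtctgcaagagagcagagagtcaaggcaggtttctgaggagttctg
That core was present on either strand in any window of 16 of 25 genes of the list (64%). Counted by single window and not by gene, it was present in 3.44% of all windows.

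Matrix genes also moved both ways. Of 20 matricellular and protease genes 11 rose and 8 fell (55% and 40%, against 27.8% and 25.6% of all genes). Of 14 collagen chain genes 5 rose and 6 fell (35.7% and 42.9%). *Tnc*, which encodes tenascin C, a matrix protein of wounds, stood at 2.0, 1.31 and 3.18 CPM without PDGF, 60.3, 33.9 and 51.6 CPM with PDGF and 204, 183 and 204 CPM with rapamycin and PDGF (6.47 ± 0.21, adjusted p = 9.21e-30). *Mmp13*, a collagenase, had 0.182, 0 and 0 CPM without PDGF, 0, 0 and 0 CPM with PDGF and 5.02, 11.4 and 10.2 CPM with rapamycin and PDGF. With 1 read without PDGF its ratio was 137 (exact 95% interval 24.0 to 5460.0). In both genes the libraries with rapamycin were above all others. *Has2*, a hyaluronan synthase, and *Thbs1*, thrombospondin 1, rose by 3.80 ± 0.15 and 3.04 ± 0.06, and by 3.19 ± 0.16 and 2.62 ± 0.06 with PDGF alone. *Col1a1* and *Col1a2*, the chains of type I collagen, changed by −1.02 ± 0.05 and −0.85 ± 0.05, *Col5a3* by 1.56 ± 0.07 and *Col6a3* by 1.29 ± 0.13. *Adamts5*, an aggrecan protease, changed by −1.67 ± 0.07.

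Targets of YAP and TEAD, which report cell tension and density, fell in 8 of 12 tested cases and rose in 2, with a median of −0.52. With PDGF alone 6 fell, 3 rose and the median was −0.70. Among all genes tested 25.6% fell and 27.8% rose with rapamycin and PDGF, and 16.9% and 20.1% with PDGF alone. *Ajuba*, a LIM protein of cell junctions, changed by −2.19 ± 0.10 with rapamycin and −1.92 ± 0.10 without it. *Ptpn14*, a phosphatase that binds YAP, changed by −1.49 ± 0.08 and −0.83 ± 0.08. *Axl*, a receptor tyrosine kinase, rose by 1.09 ± 0.11. The other member that rose with rapamycin and PDGF was *Ccn1*, by 3.44.

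Genes of BMP and TGF-beta signalling, which restrains or redirects fibroblast growth, rose in 12 and fell in 9 of 23 tested cases. The shares were 52.2% and 39.1%, against 27.8% and 25.6% of all genes. *Smad6*, an inhibitor of BMP signalling, stood at 45.3, 41.9 and 33.5 CPM without PDGF, 4.96, 3.10 and 2.69 CPM with PDGF and 6.41, 4.31 and 3.33 CPM with rapamycin and PDGF. Libraries without PDGF were above all 6 with it, and the change with rapamycin was −3.11 ± 0.24 (adjusted p = 1.17e-18). Its levels with and without rapamycin were not called different (difference 0.40, 95% interval −0.28 to 1.08). *Smad9*, a BMP effector, changed by −3.35 ± 0.37 with rapamycin and −1.48 ± 0.29 without it, and *Tgfb3*, a ligand, by −1.38 ± 0.08 and −0.78 ± 0.08. *Smad3*, a TGF-beta effector, rose by 1.83 ± 0.06 and 1.17 ± 0.06.

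FOXO and quiescence genes, which are active while PI3K-AKT signalling is low, fell in 14 of 21 tested cases and rose in 5, with a median of −1.14. Over all genes 25.6% fell and 27.8% rose. PDGF alone lowered 12, with a median of −0.39. *Fbxo32*, a ubiquitin ligase subunit and FOXO target, stood at 139, 149 and 127 CPM without PDGF, 22.3, 26.6 and 19.7 CPM with PDGF and 15.3, 14.8 and 14.2 CPM with rapamycin and PDGF (−3.23 ± 0.14, adjusted p = 8.73e-33). *Cdkn1b*, the cell cycle inhibitor p27, stood at 144, 126 and 143 CPM, 68.3, 60.5 and 55.1 CPM and 29.5, 31.4 and 33.01 CPM in the same order (−2.13 ± 0.11, adjusted p = 3.34e-27). The 3 groups were separate in both genes, lowest with rapamycin. *Pik3ip1*, an inhibitor of PI3K, changed by −2.53 ± 0.18 with rapamycin and −1.42 ± 0.16 without it. Among the members that rose were *Cdkn1a*, the cell cycle inhibitor p21, with 2.58 ± 0.44, and *Gadd45a*, a stress gene, with 2.53 ± 0.20. For *Gadd45a* the level did not differ by call from that with PDGF alone (difference −0.09, 95% interval −0.43 to 0.25).

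Circadian clock genes fell in 9 and rose in 5 of 15 tested cases (60% and 33.3%, against 25.6% and 27.8% of all genes). *Nfil3*, a repressor that competes with the activators of clock output, rose from 105, 119 and 99.4 CPM without PDGF to 760.2, 883 and 846 CPM with rapamycin and PDGF (2.95 ± 0.07, adjusted p = 8.50e-43), and stood at 841, 825 and 828 CPM with PDGF alone. The difference between both PDGF groups was 0.00 with a 95% interval of −0.13 to 0.13. *Bhlhe40*, another repressor, rose by 2.33 ± 0.12, while its paralog *Bhlhe41* changed by −2.55 ± 0.33. *Nr1d1*, which encodes the repressor REV-ERB alpha, changed by −0.61 ± 0.13.

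Genes of cholesterol synthesis and uptake, the targets of SREBP2, split with rapamycin present. Of 20 tested 6 rose and 10 fell against no PDGF, with a median of −0.42, and 4 were not called. The shares were 30% and 50%, against 27.8% and 25.6% of all genes. PDGF alone raised 11 and lowered 1, with a median of 0.83. *Insig1*, which retains SREBP in the endoplasmic reticulum and is itself an SREBP target, stood at 216, 249 and 220.4 CPM without PDGF, 484, 545 and 555 CPM with PDGF and 135, 103 and 103 CPM with rapamycin and PDGF. The groups were separate, and the PDGF group was above and the rapamycin group below the libraries without PDGF (1.21 ± 0.07 and −1.0 ± 0.07, adjusted p = 3.94e-17 for the second). *Fdps*, *Cyp51*, *Hsd17b7* and *Stard4*, singled out after their values were seen, also rose with PDGF alone and fell with rapamycin and PDGF. *Fdps*, farnesyl diphosphate synthase, changed by 0.78 ± 0.28 and −1.59 ± 0.38, the first of which was not called in 5 of 13 alternatives (library-size scaling, no filter on low counts, and without no-PDGF replicate 3, PDGF replicate 1 or PDGF replicate 3), and *Cyp51*, a demethylase of the pathway, by 0.67 ± 0.06 and −0.29 ± 0.06. *Hsd17b7*, a later enzyme, changed by 0.86 ± 0.08 and −0.59 ± 0.08 and *Stard4*, a sterol carrier, by 1.06 ± 0.08 and −0.81 ± 0.09. *Msmo1*, an oxidase of sterol synthesis, rose by 1.17 ± 0.28 with rapamycin and by 2.22 ± 0.25 with PDGF alone, and the first was not called when only protein-coding transcripts were counted.

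The sterol regulatory element bound by SREBP, searched as TCACNCCAC on both strands, was present in any window of 1 of 18 cholesterol genes (5.56%). Counted by single window and not by gene, it was present in 1.24% of all windows. The matching cholesterol gene is *Hmgcs1*, which encodes the synthase that makes HMG-CoA. Its window is shown with the match in capitals (chr13:119690101-119690400, plus strand, GRCm38.p6).
Hmgcs1: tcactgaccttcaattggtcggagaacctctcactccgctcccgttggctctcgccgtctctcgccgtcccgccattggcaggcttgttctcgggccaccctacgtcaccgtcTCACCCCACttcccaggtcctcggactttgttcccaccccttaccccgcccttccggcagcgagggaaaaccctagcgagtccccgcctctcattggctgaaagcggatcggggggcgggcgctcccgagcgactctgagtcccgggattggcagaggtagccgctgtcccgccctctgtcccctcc
*Hmgcs1* had 9 reads without PDGF and 7 with rapamycin and PDGF, so its change was not detectable with so few reads counted (0.14, 95% interval −1.60 to 1.88). Genes of fatty acid synthesis and desaturation fell in 7 of 13 tested cases and rose in 3, with a median of −0.63. The shares were 53.85% and 23.08%, against 25.6% and 27.8% of all genes. PDGF alone lowered 1 and raised 3. *Scd2*, a desaturase, stood at 4115, 4394 and 4259 CPM without PDGF, 3891, 4269 and 4157 CPM with PDGF and 977, 1023 and 983 CPM with rapamycin and PDGF. It was 4.28-fold lower with rapamycin than without PDGF (−2.10 ± 0.05, adjusted p = 2.75e-46) and not called with PDGF alone (−0.05 ± 0.05). *Gpam*, an acyltransferase that starts triglyceride synthesis, changed by −2.71 ± 0.24 with rapamycin and −1.39 ± 0.20 without it. *Elovl5*, an elongase of polyunsaturated fatty acids, rose by 0.45 ± 0.07 and 1.20 ± 0.07, the first of which was not called under library-size scaling.

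**Figure D4:**
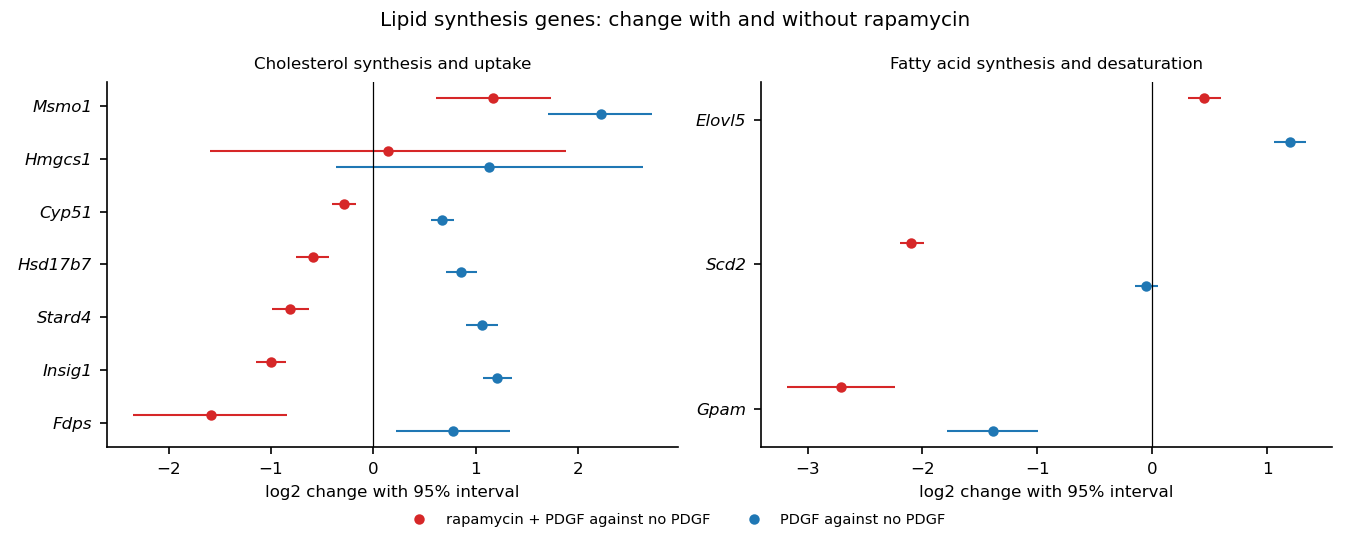
log2 change with its 95% interval (horizontal axis) for the sterol genes (left) and fatty acid and lipid genes (right) named in the text, for rapamycin with PDGF (red) and PDGF alone (blue), each against no PDGF. In the left panel the red points lie left of the blue ones, with *Insig1* at −1.0 in red and 1.21 in blue. Not all of the 20 tested sterol genes are shown. *Fdps*, *Cyp51*, *Hsd17b7* and *Stard4* were singled out after their values were seen, so the pattern in this panel is partly set by the choice.

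Genes of the ATF4 and amino acid response rose in 18 and fell in 3 of 27 tested cases with rapamycin and PDGF, with a median of 0.73. PDGF alone raised 18 and lowered 1, with a median of 0.92. Among all genes tested 27.8% rose and 25.6% fell with rapamycin and PDGF, and 20.1% and 16.9% with PDGF alone. *Slc7a11*, the cystine transporter, stood at 51.99, 55.2 and 48.1 CPM without PDGF, 218, 185 and 190.0 CPM with PDGF and 360.0, 332 and 360.1 CPM with rapamycin and PDGF (2.76 ± 0.10, adjusted p = 1.08e-31). All libraries with rapamycin were above those of both other groups. *Slc7a1*, a transporter of arginine and lysine, rose by 2.36 ± 0.06, *Cebpb*, a transcription factor, by 1.98 ± 0.10 and *Mthfd2*, a mitochondrial folate enzyme, by 1.58 ± 0.09. *Sesn2*, a leucine sensor, rose by 0.73 ± 0.06 with rapamycin and 0.97 ± 0.06 without it. *Atf4* itself had 22 and 18 reads and was not called. *Slc7a3*, a transporter of the same family as *Slc7a1*, changed by −2.43 ± 0.64. Cytosolic tRNA synthetases rose in 10 of 19 tested cases and none fell (PDGF alone, 11 rose). Of those tested, 9 had at least 50% of their reads on transcripts annotated as protein-coding, and 6 of these rose. Of all genes tested with at least that share of such reads, 28.4% rose and 33.8% fell.

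Of 16 genes of glucose uptake and glycolysis 5 rose and 3 fell, shares of 31.25% and 18.75% that lie near the 27.8% and 25.6% over all genes. Of 14 genes of nucleotide, pentose phosphate and one-carbon synthesis 6 rose and 7 fell (42.9% and 50%). *Hk2*, a hexokinase, stood at 26.2, 31.4 and 25.3 CPM without PDGF and 292, 367 and 375 CPM with rapamycin and PDGF (3.65 ± 0.10, adjusted p = 2.86e-39), and *Slc2a1*, the glucose transporter GLUT1, rose by 2.81 ± 0.25. *Slc16a1*, a lactate transporter, rose by 2.0 ± 0.06 with rapamycin and 1.86 ± 0.06 without it, a difference that was not called after adjustment (95% interval 0.02 to 0.26). *G6pdx*, the entry enzyme of the pentose phosphate pathway, changed by −0.47 ± 0.10. Polyamine genes rose in 5 of 10 tested cases (50%) and fell in 1 (10%). Of those tested, 5 had at least 50% of their reads on protein-coding transcripts, of which 1 rose and 1 fell. Among the rises were *Odc1*, the first enzyme of polyamine synthesis (2.85 ± 0.20), *Azin1*, which stabilises it (2.38 ± 0.34), and *Sat1*, which breaks polyamines down (2.42 ± 0.11). In each of these genes under 50% of the reads lay on protein-coding transcripts.

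Ribosome biogenesis genes rose with rapamycin present. Of 37 tested of 45 listed, 35 rose and none fell against no PDGF, with a median of 1.27, or 0.90 under library-size scaling. With PDGF alone 26 rose, with a median of 0.65. Among all genes tested 27.8% rose and 25.6% fell with rapamycin and PDGF, and 20.1% rose with PDGF alone. The level with rapamycin and PDGF was called above that of PDGF alone for 25 members and below it for none. Over all genes the shares were 16.3% and 16.1%. The members not called were *Polr1c* and *Ubtf*. *Ddx21*, a nucleolar RNA helicase, stood at 710.4, 733 and 712 CPM without PDGF, 1683, 1678 and 1684 CPM with PDGF and 2635, 2692 and 2769 CPM with rapamycin and PDGF. Its 3 groups were separate (1.91 ± 0.05, adjusted p = 2.08e-43). *Gar1*, a protein of the particles that modify ribosomal RNA, rose by 3.93 ± 0.63, *Mybbp1a*, a nucleolar protein, by 3.11 ± 0.80, and *Noc4l*, a factor for the small subunit, by 2.81 ± 0.36. *Ncl*, nucleolin, rose by 0.98 ± 0.07 and by 0.62 ± 0.07 with PDGF alone. Ribosomal protein genes rose in 35 and fell in 2 of 54 tested cases. Of those tested, 26 had at least 50% of their reads on protein-coding transcripts, of which 18 rose and 2 fell. For all genes tested with at least that share of such reads, 28.4% rose and 33.8% fell. *Rps20* changed by −1.01 ± 0.16 and *Rpl3* was not called.

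Cell cycle genes were mostly lower or not called. Of 26 genes of G1 and S phase 4 rose and 12 fell with rapamycin and PDGF, with a median of −0.72, where PDGF alone raised 3 and lowered 3. Of 18 mitosis genes none rose and 14 fell, with a median of −1.13, and PDGF alone lowered 8, with a median of −0.30. Among all genes tested 27.8% rose and 25.6% fell with rapamycin and PDGF, and 20.1% and 16.9% with PDGF alone. *Bub1b*, a kinase of the spindle checkpoint, stood at 73.98, 90.3 and 89.6 CPM without PDGF, 76.03, 69.3 and 74.4 CPM with PDGF and 25.6, 20.6 and 13.1 CPM with rapamycin and PDGF. Libraries with rapamycin were below all others (−2.11 ± 0.14, adjusted p = 1.52e-22), and with PDGF alone the change was not called (−0.21 ± 0.11). *Plk1*, a mitotic kinase, changed by −1.92 ± 0.20, *Cdc20*, an activator of mitotic exit, by −1.77 ± 0.13, and *Mki67*, the proliferation marker Ki-67, by −1.27 ± 0.06. Among genes of S phase, *Mcm2*, a subunit of the replicative helicase, went from 161, 172 and 149 CPM to 80.2, 78.2 and 71.96 CPM (−1.07 ± 0.09, adjusted p = 8.25e-18). *Ccnd1*, cyclin D1, changed by −0.87 ± 0.12 and *Ccne1*, cyclin E1, by −1.22 ± 0.39. *Ccnd2*, cyclin D2, rose by 1.30 ± 0.06 with rapamycin and 1.38 ± 0.06 without it, and the difference was not called (95% interval −0.20 to 0.03). The other rises in the list were *Tk1*, thymidine kinase (1.44 ± 0.18), *Cdk6*, a partner of the D cyclins (1.24 ± 0.08), and *E2f3*, a transcription factor, whose call was lost under library-size scaling.

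**Figure D5:**
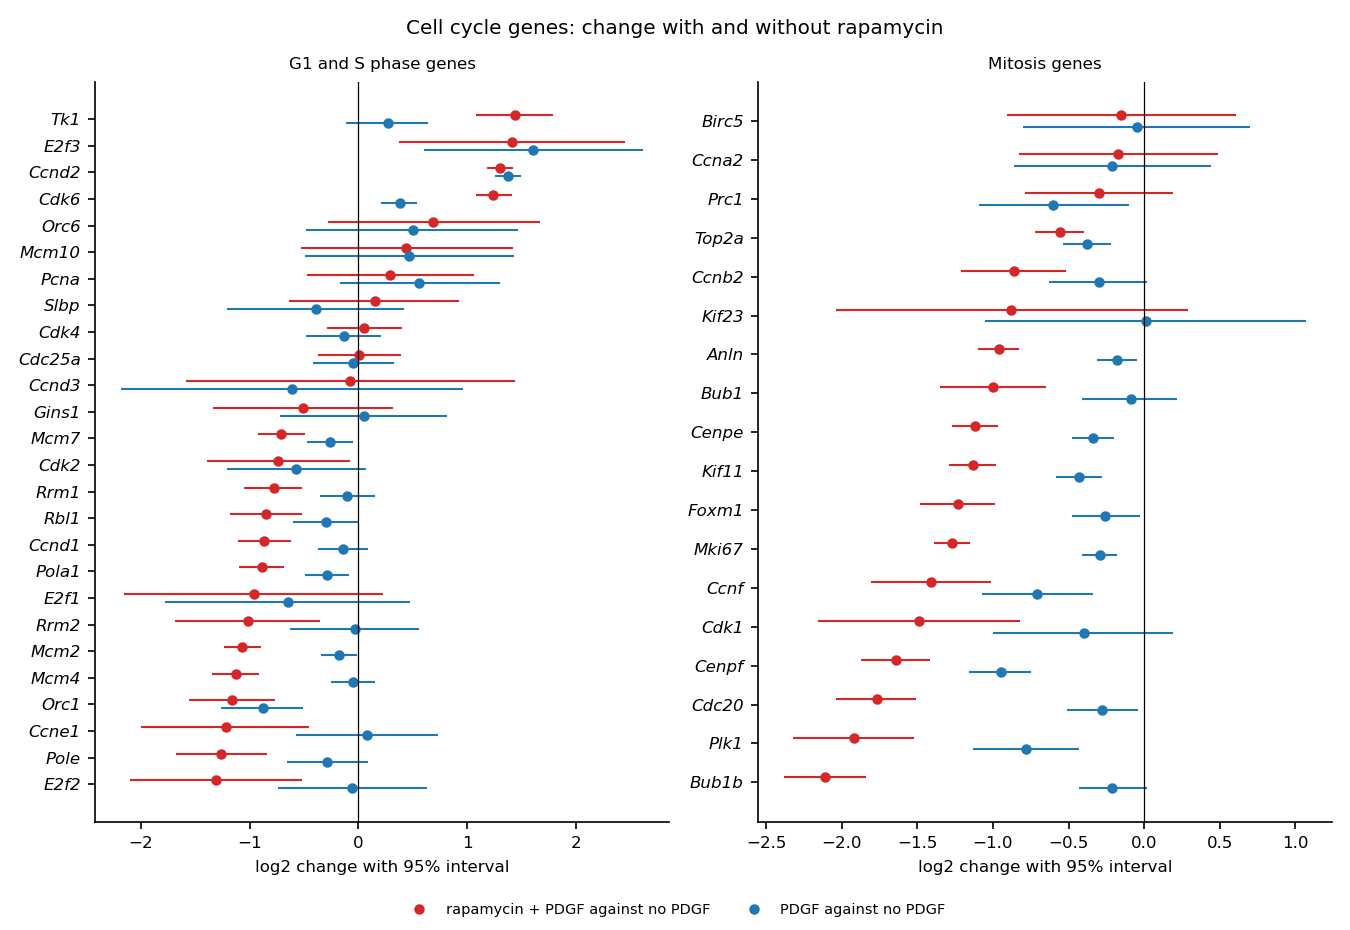
log2 change with its 95% interval (horizontal axis) for each tested gene of G1 and S phase (left) and of mitosis (right), for rapamycin with PDGF (red) and PDGF alone (blue), each against no PDGF. In the mitosis panel the red points of the called genes run from −2.11 for *Bub1b* to −0.56 for *Top2a*, and no gene has a red point above 0.

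Lysosome genes and other TFEB targets, which mTORC1 restrains, rose in 6 and fell in 11 of 30 tested cases. The shares were 20% and 36.7%, against 27.8% and 25.6% of all genes. PDGF alone raised 12 (40%) and lowered 2 (6.67%), where 20.1% and 16.9% of all genes did so. *Atp6v1b2*, a subunit of the lysosomal proton pump, stood at 449, 442 and 440.5 CPM without PDGF, 602, 646 and 604 CPM with PDGF and 336, 332 and 318 CPM with rapamycin and PDGF (−0.43 ± 0.06). *Ctsl*, a cathepsin, rose by 1.54 ± 0.29 and *Sqstm1*, an autophagy receptor, by 1.73 ± 0.18. NRF2 antioxidant targets rose in 8 and fell in 5 of 16 tested cases (50% and 31.25%). *Srxn1*, sulfiredoxin, rose by 2.95 ± 0.06 with rapamycin and 2.58 ± 0.06 without it, and *Nfe2l2*, which encodes NRF2, by 2.26 ± 0.06 and 1.67 ± 0.06. Genes of the unfolded protein response rose in 7 of 16 tested cases and fell in 2 (43.75% and 12.5%). *Hspa5*, the chaperone BiP, rose by 2.42 ± 0.33 with rapamycin and 3.33 ± 0.30 without it. That difference (−0.91 ± 0.25) was called lower, but not when only protein-coding transcripts were counted. HSF1 chaperones rose in 5 and fell in 4 of 13 tested cases, near the shares over all genes, and *Hspa1a*, an inducible HSP70, changed by −2.05 ± 0.41.

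Components of mTORC1, AKT and nutrient sensing rose in 7 and fell in 8 of 26 tested cases, shares near the 27.8% and 25.6% over all genes. *Mtor*, the kinase itself, changed by −0.68 ± 0.08 with rapamycin and −0.57 ± 0.08 without it. *Irs1*, an adaptor of the insulin receptor, went from 261, 238 and 242 CPM without PDGF to 64.2, 57.1 and 47.7 CPM with PDGF and 27.3, 18.5 and 22.3 CPM with rapamycin and PDGF (−3.44 ± 0.12, adjusted p = 3.82e-34). *Rheb*, the GTPase that activates mTORC1, rose by 1.73 ± 0.10, and *Eif4ebp1*, a repressor of translation that mTORC1 inactivates, by 1.36 ± 0.17. *Fkbp1a*, which encodes the rapamycin-binding protein FKBP12, rose by 1.27 ± 0.28, with 1.04% of its reads on protein-coding transcripts. Mitochondrially encoded genes rose in 7 of 12 tested cases and none fell, and their median of 0.31 became −0.07 under library-size scaling.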

How the data were processed

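RNA of mouse NIH3T3 cells was sequenced in 15 libraries, 5 groups of 3. Whole-number read counts per transcript were deposited by the authors, not normalized; per the submitters' processing notes the tools were HISAT2 2.2.1, HTSeq 0.9.1 and R 4.1.0. The build named there, hg38, is human, while the identifiers are of mouse transcripts, and no other build is named. By default HTSeq drops reads on overlapping features, so gene sums reflect transcript-specific reads, and levels of different genes cannot be compared. Strand is not given, so antisense partners cannot be told apart. Identifiers were matched to GENCODE M21 (GRCm38): 141441 matched, and 1005, with 0.0756% of the counts, were left out.

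Gene sums were filtered with filterByExpr over the 5 groups (10597 genes) and scaled by TMM. All 15 libraries entered 1 fit of edgeR 4.0.16 (quasi-likelihood, robust), with Benjamini-Hochberg adjustment and no replicate term. The script was tested on simulated data. SE was back-calculated as log2 change over root F. With no read in a group, the fold is a bound against 3 counts over the group, and with 1 to 3 reads an exact 95% interval of the ratio is given. Floors and intervals cover counting error only.

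The members, lists and rules were chosen with earlier results of these data known. Named genes are the 8 largest rises and falls (called, mean log2 CPM 1 or more, separate groups, no clone-type symbol), up to 3 called members per list and direction, and a list of key genes. *Gem*, *Cyld*, *Polr1c*, *Ubtf*, *Cdk6*, *Top2a*, *Cyp51*, *Hsd17b7* and *Stard4* were named after their values were seen. Not tested for lack of reads were, among others, the key genes *Pdgfrb*, *Id1*, *Txnip*, *Cad* and *Fkbp5*. Some genes that the rule names are not reported here. Promoter windows are from RefSeq (GRCm38.p6). Alternatives covered scaling, filtering, DESeq2, limma-voom, fewer groups, transcript classes, the replicate number as a term, and leaving out each library.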

Additional observations from a re-analysis of the deposited data

How the results depend on the processing

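Scaling to library totals alone changed the counts most: with rapamycin and PDGF 1918 genes were higher and 4150 lower than without PDGF (2947 and 2708 with TMM), and with PDGF alone 1378 were higher and 3111 lower (2126 and 1793). Leaving out each library in turn gave 2795 to 2884 higher and 2544 to 2750 lower genes with rapamycin and PDGF. The other settings, among them DESeq2 with 2872 higher and 2608 lower genes and limma-voom with 3000 and 2676, stayed within 1.5 times. Of 194 named genes called with rapamycin and PDGF, 171 kept the call under every alternative in which they could be tested. Some of these, such as *Cish* and *Arntl*, could not be tested under all alternatives. Reversed were *Rplp1* with PDGF alone (−0.03 on the log2 scale under library-size scaling) and *Hsph1* with PDGF alone (0.58 when only protein-coding transcripts were counted). The cause was not tested. Deviations of same-numbered libraries from their group means had correlations of 0.00406 to 0.0629 among the 3 groups. Those of differently numbered libraries ran from −0.0797 to 0.0615. Correlations this small cannot decide whether the numbers pair samples, and the labels do not say what a number shares. With a replicate block 2947 genes were higher and 2707 lower. Libraries held 3494761 to 4652663 counts, and changes of genes with few reads counted, such as *Egr1*, *Hmgcs1* and *Atf4*, were not detectable. Gene sums reflect transcript-specific reads, so few reads need not mean a low level of the gene.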
